A study of Mus musculus with 319 samples.

Results

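The genes described here encode the Golgi and endoplasmic reticulum enzymes that build protein-linked and lipid-linked glycans, as transcribed in sorted thymic tuft cells. They were chosen by symbol: Sec1, and every protein-coding gene named Fut, Galnt, St3gal, St6gal, St6galnac, St8sia, B3galt, B4galt, B3gnt, Mgat, Gcnt or Alg followed by a digit. The rule found 94 of the 48795 gene entries of the count tables, under 93 symbols, since 2 entries carry the symbol St6galnac2. The rule uses symbols and no measured value, but it was set with earlier results of these data known.

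The wells hold thymic epithelium of naive mice sorted by a gate of EPCAM+, MHCIIlo, Flare25+ and CD45-, with CD11c- and UVBlue- events, where Flare25 is a reporter of Il25, a cytokine of tuft cells. All mice carried the reporter on both alleles (Flare25/Flare25). The wild-type (WT) wells, from mice of strain C57BL/6.Il25 at 6 weeks, form 3 sets, called June5 (29 cells kept of 31 wells) and June29 (87 of 95), both of batch 1, and WT batch 2 (89 of 92). The fourth set, of batch 2, is labelled Flare25/Flare25 Aire-/- (strain C57BL/6.Il25.Aire, 96 of 96 wells kept, 6 weeks old except for 1 well of 5 weeks). Aire is the nuclear regulator through which medullary thymic epithelial cells transcribe tissue-restricted genes. Sex is labelled as mixed, thymi were pooled, and no animal is named, so each set is 1 sample without a replicate, no test between sets was made, and every interval below (95%) covers counting error only.

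Glycans are assembled by a relay of transferases. ALG enzymes build a lipid-linked oligosaccharide on dolichol, which is transferred to asparagine residues and trimmed, after which MGAT enzymes start its antennae, B4GALT enzymes extend them with galactose and FUT8 adds core fucose. GALNT enzymes start the mucin-type chains on serine and threonine, GCNT enzymes branch them, and sialyltransferases and the fucosyltransferases FUT1, FUT2 and SEC1 cap the ends. The lectin UEA-1, which binds the terminal alpha-linked fucose that FUT1 and FUT2 make, is the classical stain of medullary thymic epithelium, and fucosylated glycans also mark tuft cells of the gut.

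The sequences of Fut2 and Sec1 are shown first because they bear on how reads were assigned to each. Sec1 lies beside Fut2 on chromosome 7, and their coding sequences, placed against each other without gaps, had the same base at 781 of 1041 positions (75%), with an unbroken identical run of 180 bases. The 300 coding bases in which they differ least are given 5′ to 3′ from GENCODE M21 transcripts, on the minus strand of GRCm38, at chr7:45650676-45650975 for Fut2 and chr7:45678879-45679178 for Sec1. Capitals mark the 5 bases of Sec1 that are unlike Fut2.
Fut2: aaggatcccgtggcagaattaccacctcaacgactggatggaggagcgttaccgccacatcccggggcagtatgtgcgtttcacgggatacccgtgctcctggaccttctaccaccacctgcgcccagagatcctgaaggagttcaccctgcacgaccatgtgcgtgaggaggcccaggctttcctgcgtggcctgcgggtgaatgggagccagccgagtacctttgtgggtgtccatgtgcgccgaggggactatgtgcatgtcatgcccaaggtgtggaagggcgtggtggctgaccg
Sec1: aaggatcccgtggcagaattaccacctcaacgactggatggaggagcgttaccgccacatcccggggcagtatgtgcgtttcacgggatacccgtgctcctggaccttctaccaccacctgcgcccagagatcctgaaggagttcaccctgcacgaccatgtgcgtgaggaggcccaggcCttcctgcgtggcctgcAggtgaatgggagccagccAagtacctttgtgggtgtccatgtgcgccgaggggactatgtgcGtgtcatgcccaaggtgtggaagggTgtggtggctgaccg
A read that falls inside the identical run could have come from either gene. Of all 50-base words in the Sec1 transcripts, 24.1% also occur in transcripts of other genes, namely Fut2 and Ntn5, and for Fut2 the share was 2.9%.

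Median gene reads per cell ran from 539655 (June5) to 1150167 (June29), and single cells ranged from 45266 to 2927690. Tuft identity was plain in every set, with 17 or 18 of 20 core tuft genes found in at least 50% of cells. The gene named in the genotype could not serve as a check of it: Aire stood at 7.84, 11.2 and 18.9 CPM (reads scaled to the gene reads of a set) in the 3 WT sets, with 152.7 CPM in the set labelled Aire-/-, and counts per gene do not show from which part of a transcript the reads came. Cells with at least 2 markers of a haematopoietic list numbered 11, 28, 12 and 17 in these 4 sets. Cells with Xist reads and no Y-linked reads numbered 7, 0, 42 and 86, and those with the reverse 13, 66, 30 and 0. Within batch 2, a deposited sample table numbers the wells 1 or 2 in a column headed Batch, called sub-batches here, with 48 and 41 kept WT cells and 48 and 48 kept cells labelled Aire-/-.

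In the WT sets the members together made up 2127 CPM (June5), 1907 (June29) and 2101 (batch 2), and in the set labelled Aire-/- 2163 CPM. The total therefore differed little between sets, while its make-up differed from cell to cell. A level of 20 CPM was reached by 31, 28, 33 and 35 members in the 4 sets in that order, by 44 in at least 1 set and by 19 in every set. In the single sets this was 33%, 29.8%, 35.1% and 37.2% of members, near the 29.9%, 31.4%, 32.9% and 31.3% of all protein-coding genes. At the other end, 17 members stayed under 1 CPM in every set, and 6 of them, Fut7, Galnt13, Galnt15, B3galt1, B3gnt7 and Mgat4e, had no read in any kept cell. Where no read was found, a floor of 3 counts in the set allows up to 0.12 CPM in June5, the shallowest set in total, and 0.0274 CPM in June29, the deepest.

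Most members were read in a minority of cells. A cell counts as positive with 5 or more reads, and a member was found in at least 50% of cells in few cases: Fut2, B4galt5 and B4galt6 in June5, Fut2 in June29, St6galnac2 and Alg13 in WT batch 2, and Fut2 in the set labelled Aire-/-. The median cell held 11, 9, 9 and 11 members in the 4 sets, with single cells from 1 to 27. As a share of the protein-coding genes positive in a cell, the median was 0.351%, 0.347%, 0.348% and 0.383%. After every cell was thinned to 231697 reads, with 6, 2, 10 and 12 shallower cells left out, the medians were 10, 6, 9 and 10. The June29 set, with the most reads per cell, thus had the lowest median at equal depth.

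**Figure D1:**
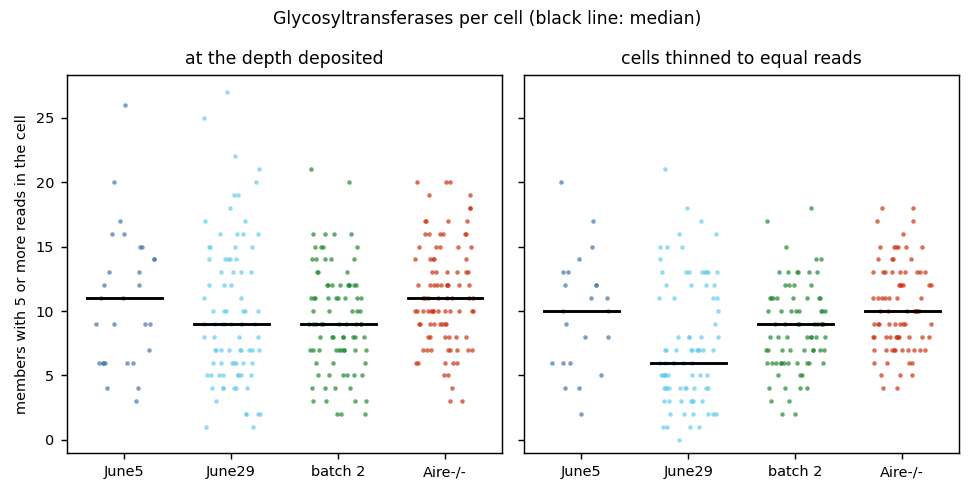
Number of glycosyltransferase members with 5 or more reads in each kept cell (vertical axis), by set (horizontal axis), at the deposited depth on the left and after thinning to 231697 reads on the right. Points are cells and black lines are medians, which run 11, 9, 9 and 11 on the left and 10, 6, 9 and 10 on the right.

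Per kb of exon, which is the scale on which different genes can be compared, Fut2 and St6galnac2 led, with a median over the 3 WT sets of 28.9 and 28.7 CPM per kb. Galnt14 (25.9), Galnt18 (19.5), Alg1 (19.3) and Alg3 (18.9) followed. The values of these 6 overlapped between sets: Fut2 ranged from 18.6 to 35.4 CPM per kb over the WT sets and Alg3 from 7.93 to 25.4, so that their order was not the same in each set.

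**Figure D2:**
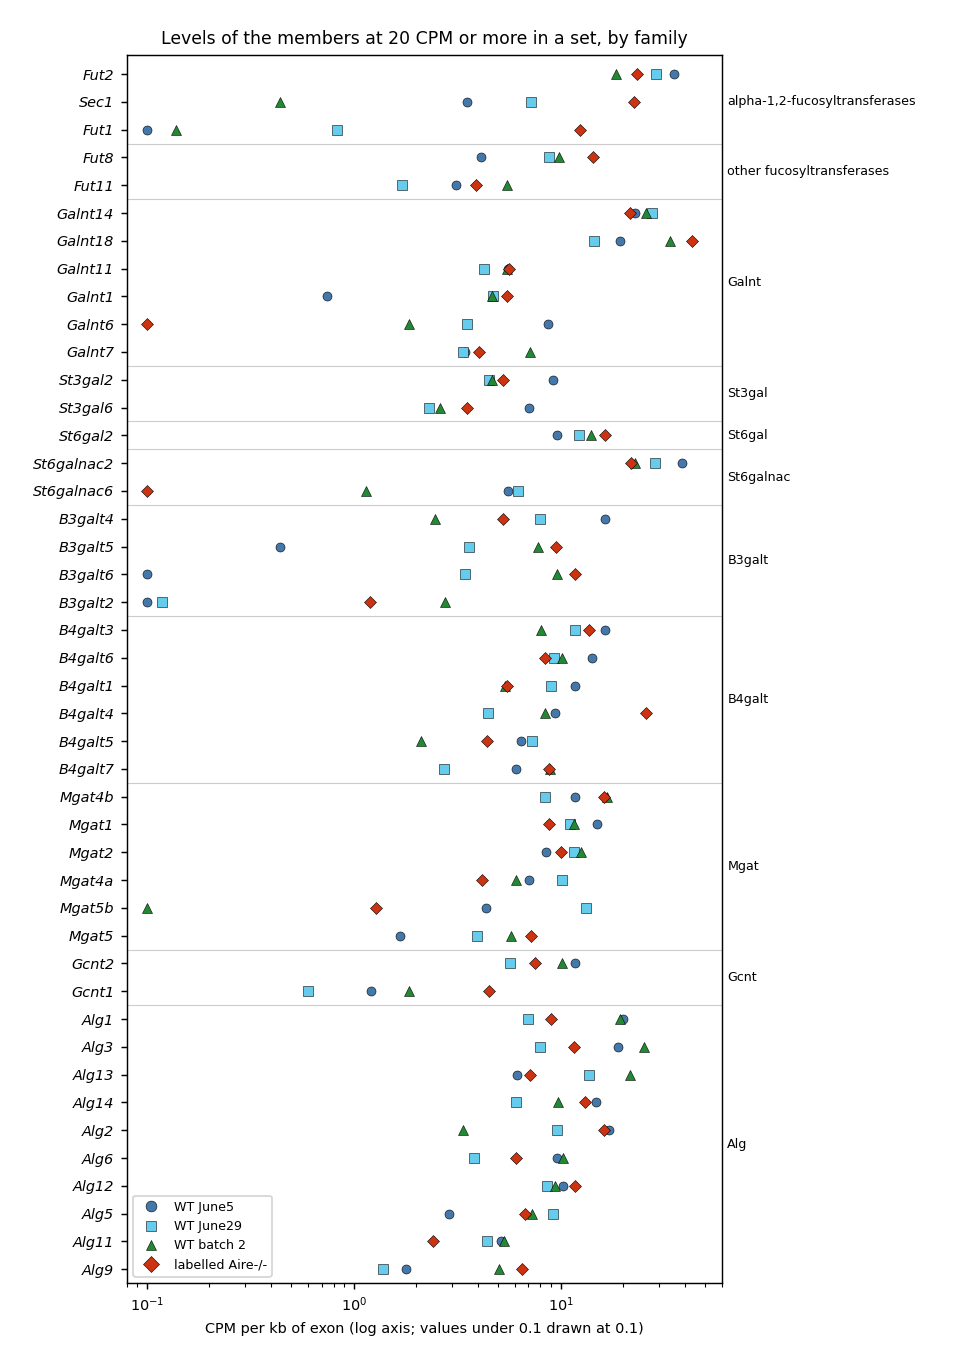
CPM per kb of exon (log axis) of the 44 members that reached 20 CPM in at least 1 set, grouped by family, with 1 symbol per set. Fut2, St6galnac2 and Galnt14 sit between 18.6 and 38.7 CPM per kb in all 4 sets, whereas Sec1 runs from 0.438 to 22.6.

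Among the fucosyltransferases that cap chains with alpha-linked fucose, Fut2 (ENSMUSG00000055978, chr7:45648591-45666394, minus strand) was the main transcript. Its level was 192.3, 156.9 and 100.8 CPM in the WT sets (June5, June29 and batch 2, the order kept below) and 127.8 CPM in the set labelled Aire-/-, inside the WT range. Cells positive for Fut2 made up 62.1%, 59.8%, 46.1% and 58.3% of the 4 sets. Sec1 (ENSMUSG00000040364, chr7:45677686-45694402, minus strand) stood at 8.76, 17.7 and 1.08 CPM in the WT sets and at 55.9 CPM in the set labelled Aire-/-. Fut1 (ENSMUSG00000008461, chr7:45617289-45621059, plus strand) had no read in June5, 2.32 CPM in June29 and 0.384 CPM in WT batch 2. The set labelled Aire-/- held 34.5 CPM of it. Of the summed level per kb of these 3 genes, Fut2 gave 97% in WT batch 2, whereas with the Aire-/- label its part was 40.2%. It held 35.4 of 39 CPM per kb in June5 and 28.9 of 36.9 CPM per kb in June29. In the set labelled Aire-/-, 1 cell held 44.7% of the Sec1 reads, and Fut1 was positive in 9 of 96 cells.

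Fut8, the only enzyme that adds core fucose to N-glycans, stood at 32.5, 69.2 and 78 CPM in the WT sets and at 113.5 CPM in the set labelled Aire-/-, which lay above the WT range. It was positive in 31%, 27.6%, 33.7% and 46.9% of cells. Fut11, a more distant relative in the family, reached 20 CPM in WT batch 2 alone (13.3, 7.24, 23.4 and 16.5 CPM). The enzymes that make Lewis-type fucose were scarce: Fut4 and Fut9 peaked at 7.87 and 9.78 CPM, with 67.4% and 94% of those reads in a single cell, and Fut7 had none.

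GALNT enzymes, which start mucin-type O-glycans, formed the largest family, with 17 members. Of these, 6 reached 20 CPM in a set: Galnt1, Galnt6, Galnt7, Galnt11, Galnt14 and Galnt18. Galnt14, the highest of them by the WT median per kb, stood at 134.5, 162.4 and 152.5 CPM in the WT sets and 127.8 CPM in the set labelled Aire-/-, just below the WT range, with positive cells at 41.4%, 26.4%, 36% and 37.5%. Galnt18 stood at 50.1, 37.3 and 87.5 CPM in the WT sets and at 111.2 CPM in the set labelled Aire-/-, above the WT range. Galnt1, Galnt7 and Galnt11 ran from 4.12 to 30.4, from 17.7 to 37.5 and from 29.4 to 38.6 CPM over the 4 sets. The Galnt6 level of 33.6 CPM in June5 came to 99.9% from 1 cell. Galnt2, elsewhere a common initiator, was at most 0.28 CPM, but 90% of its exon bases are shared on the same strand with the annotated gene Gm20388, which itself had no read, so its level cannot be read from these counts.

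Of the 5 GCNT enzymes, which branch O-glycans or, in the case of Gcnt2, the poly-N-acetyllactosamine chains of the I antigen, Gcnt2 led with 82.8, 40.1, 71.4 and 52.9 CPM. Gcnt1, which makes the core 2 branch, was lower, at 7, 3.46 and 10.7 CPM in the WT sets, and reached 26 CPM in the set labelled Aire-/-. Its positive cells made up 13.8%, 5.75%, 7.87% and 12.5%. The highest level of Gcnt3, Gcnt4 and Gcnt7 in any set was 7.17 CPM, with 83.5% of those reads in 1 cell.

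Among sialyltransferases the levels differed widely by linkage. St6galnac2 (ENSMUSG00000057286), which adds sialic acid to the GalNAc of O-glycans, stood at 224.2 CPM in June5, at 133.1 CPM in WT batch 2 and between these in June29. It was at 127.1 CPM in the set labelled Aire-/-. Its positive cells made up 48.3%, 40.2%, 55.1% and 47.9%. A second entry with this symbol (ENSMUSG00000110170), which shares 383 exon bases with the first, had 4.72, 2.93, 1.87 and 1.49 CPM. St6galnac6 had 26.8 and 29.9 CPM in June5 and June29, of which 98.4% and 63.3% came from 1 cell, and 5.53 and 0.484 CPM in batch 2.

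For terminal alpha-2,6 sialic acid on N-glycans, St6gal2 was the higher gene. It stood at 70.8, 90.7 and 103.4 CPM in the WT sets and at 121.6 CPM in the set labelled Aire-/-. St6gal1, the broadly expressed member of the pair, was at 0.04, 0, 7.45 and 6.43 CPM, and a single cell gave 99.8% and 93.6% of its reads in the 2 sets of batch 2. Among the 6 alpha-2,3-sialyltransferases, St3gal2 stood at 46.5, 22.8, 23.5 and 26.5 CPM and St3gal4 at 7.48, 11.5, 10.8 and 5.03 CPM. St3gal6 also passed 20 CPM, in 2 sets (43.5 and 21.8 CPM), with 26% of its exon bases shared with Dcbld2 on the opposite strand.

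The alpha-2,8-sialyltransferases, which make polysialic acid and gangliosides, were low. Their summed level was 15.6, 16.9 and 11.8 CPM in the WT sets and 0.484 CPM in the set labelled Aire-/-, and no member reached 20 CPM. St8sia1 gave nearly all of the June5 value, with 99.7% of its reads in 1 cell, and St8sia4, at 0, 11.6 and 10.2 CPM in the WT sets, had 99.7% of its WT batch 2 reads in 1 cell and no read in the set labelled Aire-/- (up to 0.0415 CPM by the same floor). The log2 difference of the family, labelled Aire-/- minus WT batch 2, was -3.10. It was -0.87 without haematopoietic-marker cells and -0.16 in sub-batch 2 alone. In that sub-batch no member was above 0.0775 CPM in either set, so the value of -0.16 mostly reflects the added 1 CPM. The summed thymocyte markers ranged from 50.0 to 119.03 CPM over the WT sets and stood at 6.68 CPM in the set labelled Aire-/-, with 5, 1, 3 and 7 of 11 genes at 0. Their part in the sialyltransferase values was not tested.

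Galactosyltransferases were broadly shared out. Of the 7 B4GALT enzymes, which attach galactose in beta-1,4 linkage, 6 reached 20 CPM in a set, and in each set between 71.9% and 89.7% of cells were positive for at least 1 of them. B4galt3 stood at 89.6, 64, 44 and 75.2 CPM, B4galt6, which also makes lactosylceramide, at 82.2, 54.1, 59.1 and 48.9 CPM, and B4galt5 at 27.7, 31.3, 9.15 and 19 CPM. B4galt1, the broadly expressed lactose synthase subunit, ran from 22.8 to 49.9 CPM and B4galt7, a proteoglycan linker enzyme, from 7.93 to 25.7 CPM. No single member gave more than 26.4% of the family's summed level per kb in the WT sets. B4galt4 (ENSMUSG00000022793, chr16:38742264-38769049, plus strand), which acts on N-acetylglucosamine including its sulfated form, is described with the genotypes.

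The 5 B3GALT enzymes, which attach galactose in beta-1,3 linkage, held 3 of the 4 members with the widest gap between WT sets. B3galt5 stood at 2.72, 22.3 and 48 CPM in June5, June29 and WT batch 2 and at 58.7 CPM in the set labelled Aire-/-, and B3galt4 at 26, 12.6, 3.91 and 8.32 CPM. B3galt6, which works on the linker of proteoglycans, had no read in June5 and 11, 30.5 and 37.4 CPM in the other sets. None of the 8 B3GNT enzymes, which extend chains with N-acetylglucosamine, reached 20 CPM. B3gnt2 had 8.4, 8.54, 14.5 and 15.5 CPM, yet was positive in 27.6%, 25.3%, 33.7% and 43.8% of cells, a spread of low values over many cells. Its level is uncertain because 58.6% of its exon bases are shared with Gm28048 on the same strand. B3gnt8 had 11.7, 4.44, 1.15 and 16.9 CPM, with 100% of the June5 reads and 75.6% of those in the set labelled Aire-/- in 1 cell.

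The ALG family, which builds the dolichol-linked precursor of N-glycans, was broadly present, and 10 of its 12 members reached 20 CPM in a set. Its summed level per kb, 108.4, 73.4 and 119.2 CPM in the WT sets and 92.2 CPM in the set labelled Aire-/-, was the highest of the 13 families in every set. Alg1, the first mannosyltransferase of the pathway, stood at 53.6, 18.6, 51.8 and 24 CPM, and Alg3, which adds mannose on the lumenal side, at 32, 13.4, 42.9 and 19.6 CPM. Both were low in June29 and in the set labelled Aire-/-, which lay inside the WT range. Alg5, Alg6, Alg9, Alg11 and Alg12 also reached 20 CPM, with highest levels of 34.2, 87.8, 25.5, 26.5 and 27.5 CPM. Alg14 and Alg13, the membrane anchor and the catalytic partner of a N-acetylglucosaminyltransferase, did not follow each other: Alg14 stood at 36.9, 15.2, 24.3 and 32.8 CPM and Alg13 at 42.3, 93.6, 148.2 and 49 CPM.

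MGAT enzymes, which start the antennae of complex N-glycans, had 6 of 10 members at 20 CPM in a set. Mgat1, without which no complex N-glycan is made, stood at 70.8, 52.8, 55.1 and 41.8 CPM, lowest in the set labelled Aire-/-, and Mgat2, which acts next, at 22.3, 30.4, 32.8 and 26.4 CPM. Mgat4a and Mgat4b, which add the same branch, stood at 90.9, 130.2, 78.7 and 53.7 CPM and at 31.8, 22.8, 45.7 and 44.1 CPM. Per kb, Mgat4b was the higher of the pair in every set except June29, where it was at 8.37 and Mgat4a at 10.1 CPM per kb. Mgat5, whose branch is the one extended with poly-N-acetyllactosamine, stood at 17.2, 40.7, 59.6 and 73.7 CPM, and Mgat3, which adds the bisecting residue, at 12 CPM at most.

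The comparison of genotypes was made within batch 2. The size rule asked for 20 CPM or more on the higher side, a log2 difference of 1 or more once 1 CPM had been added to both levels, and a gap of 15 points or more, pointing the same way, between the percentages of positive cells. It is a threshold of size and not a test. Of the 39 members at 20 CPM in either set, 3 were higher in the set labelled Aire-/- (Sec1, B4galt4 and Alg2) and 1 was lower (Alg13). Among all 8267 genes at that level, 1.02% were higher and 0.399% lower. The median log2 difference of the 61 members at 5 CPM or more was 0.03, with 31 above 0, against -0.07 over all 12759 genes at that level. In sub-batch 2 alone the members' median was -0.36 and in sub-batch 1 alone 0.22.

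Sec1 showed the largest difference among the 4. It stood at 1.08 CPM (interval 0.83 to 1.39) in WT batch 2 but at 55.9 CPM (54.2 to 57.7) with the Aire-/- label, a log2 difference of 4.77. Positive cells numbered 6 of 89 (6.74%, Clopper-Pearson interval 2.51 to 14.1) and 25 of 96 (26%, 17.6 to 36). Cells at 100 CPM or more numbered 0 of 89 and 12 of 96, a gap under 15 points. The share part of the rule was thus met only with the lower cells counted. A single cell held 44.7% of the Sec1 reads in the set labelled Aire-/-, and without it the log2 difference was 3.97. Sec1 was past the rule in both sub-batches, at 0.635 and 36.5 CPM in sub-batch 1 and at 1.63 and 75.5 CPM in sub-batch 2. The other WT sets, at 8.76 and 17.7 CPM, lay below the set labelled Aire-/- too, with a log2 difference of 2.54 from the median WT set. Their shares of positive cells, 20.7% and 18.4%, lay within 15 points of the 26% with the Aire-/- label, so that the share part of the rule was met against WT batch 2 and not against them.

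B4galt4 stood at 27 CPM (25.7 to 28.4) in WT batch 2 but at 83.3 CPM (81.2 to 85.4) with the Aire-/- label, a log2 difference of 1.59. It was positive in 4 of 89 cells (4.49%, interval 1.24 to 11.1) and in 22 of 96 (22.9%, 15 to 32.6). The other WT sets, at 30.2 and 14.3 CPM, lay below the set labelled Aire-/- too, although their shares of positive cells, 17.2% and 14.9%, were closer to it. In sub-batch 1 alone (47.3 and 87.9 CPM) the log2 difference of 0.88 did not pass the rule, whereas in sub-batch 2 (2.25 and 78.6 CPM) it did.

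Alg2 (ENSMUSG00000039740, chr4:47465067-47474333, minus strand), a mannosyltransferase of the dolichol pathway, stood at 11.6 CPM (10.7 to 12.5) in WT batch 2 but at 55.9 CPM (54.2 to 57.7) with the Aire-/- label, a log2 difference of 2.18, with positive cells at 6.74% and 22.9%. The June5 and June29 sets, at 59.3 and 33.3 CPM, enclose the set labelled Aire-/-, and the WT sets alone spanned 2.26 on the log2 scale. Alg2 did not pass the rule in sub-batch 2 alone, in thinned cells, or where 1 read made a cell positive.

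Alg13 (ENSMUSG00000041718, chrX:144317804-144374450, plus strand) stood at 148.2 CPM (145.1 to 151.4) in WT batch 2 but at 49 CPM (47.4 to 50.7) with the Aire-/- label, a log2 difference of -1.58. It was positive in 47 of 89 cells (52.8%, interval 41.9 to 63.5) and 30 of 96 (31.3%, 22.2 to 41.5), and it was past the rule in both sub-batches. The June5 set, at 42.3 CPM, was as low as the set labelled Aire-/-. Alg13 is X-linked, and the batch 2 sets differed in cells with Xist and Y-linked reads as given above. Among cells with Xist and no Y-linked reads the log2 difference was -1.26 and no longer passed the rule.

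The 50-cell wells of batch 2, 1 library per genotype, give a reading apart from the single cells, although fewer expressing cells and less RNA per cell cannot be told apart in them. The genotype of each was taken from its title and the table that holds it, whereas its description lists the table of the other genotype, and the series text gives a larger number of sorted cells. Sec1 had 0 reads in the WT well, where the floor of 3 counts allows up to 4.16 CPM, and 19 reads (35.2 CPM) in the well labelled Aire-/-, at least 8.46-fold higher before the counting error of the 19 reads. B4galt4 had 6 reads (8.33 CPM) and 46 reads (85.3 CPM). Alg2 had 0 and 2 reads, and Alg13 had 76 reads (105.5 CPM) and 52 reads (96.4 CPM). Gaps between the wells were common: of 35 members at 20 CPM in a well, 24 differed by 1 or more on the log2 scale, 12 in each direction, and 22 of these had not passed the rule in the single cells. St3gal2 had 39 and 1 reads, Mgat5 54 and 5, and B4galt7 0 and 29 (genes singled out after their values were seen). The Sec1 and B4galt4 gaps thus lie within the scatter between these 2 libraries. All members together came to 1810 CPM in the WT well and 1846 CPM in the other, and the no-cell well of batch 1 held 25 member reads among 9892 gene reads, of which 3 were Fut2 and 1 each Sec1 and Alg2.

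**Figure D3:**
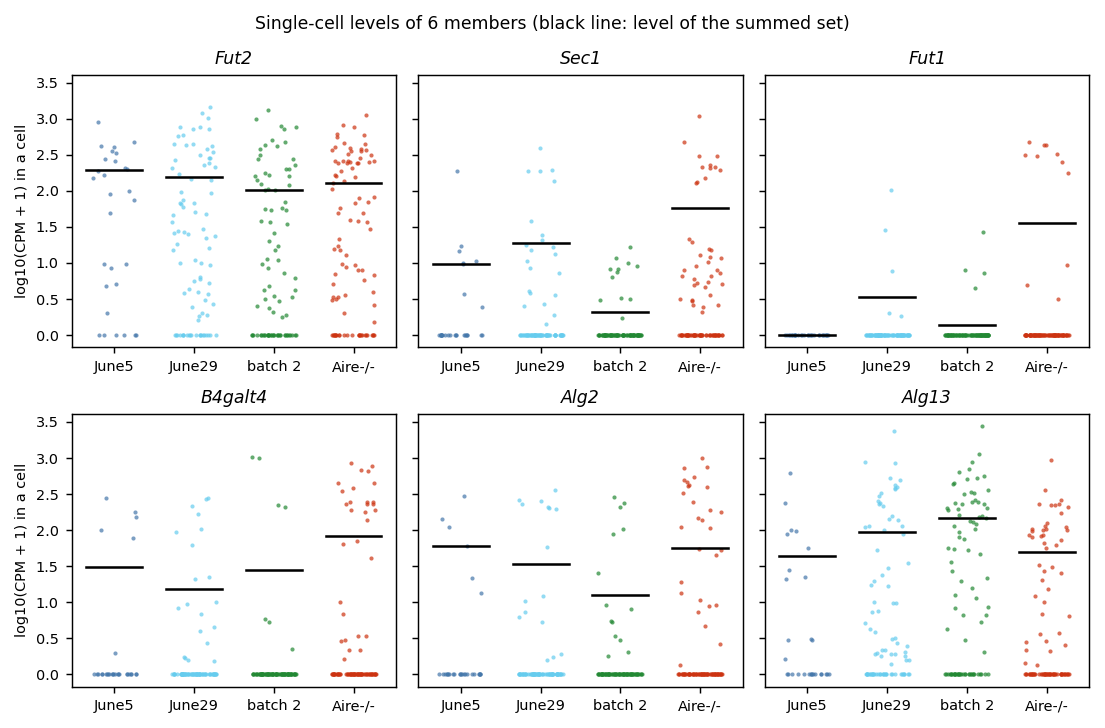
CPM of 6 members in each kept cell, on a log10(CPM + 1) scale (vertical axis), by set. Points are cells, and black lines are the levels of the summed sets, which for Sec1 are 8.76, 17.7, 1.08 and 55.9 CPM and for Alg13 42.3, 93.6, 148.2 and 49 CPM.

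The single cells show how these levels were composed. Fut2 was spread over many cells, with a median of 199.9, 117.5, 142.3 and 223.1 CPM in positive cells of the 4 sets and a highest cell of 1455 CPM. Sec1-positive cells fell into a low and a high part. In the set labelled Aire-/-, 12 of 25 positive cells held 129.5 CPM or more, up to 1080 CPM, and 96.7% of the reads, while the others held at most 20.6 CPM. In June29, 5 of 16 positive cells held 134.5 CPM or more and 87.7% of the reads, in June5 this was 1 of 6 cells and 46.1%, and in WT batch 2 no cell exceeded 15.7 CPM. Fut1 was read in few cells: 9 of 96 cells (9.38%, interval 4.38 to 17.1) were positive in the set labelled Aire-/-, with a median of 312 CPM among them. Their share was 0 of 29, 3 of 87 and 3 of 89 in the WT sets. That gap in share kept Fut1 from passing the size rule in spite of its log2 difference of 4.68.

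Most Sec1-positive cells were also Fut2-positive, in sets where Fut2 was itself read in many cells. Of the Sec1-positive cells, 5 of 6, 16 of 16 and 6 of 6 were Fut2-positive in the WT sets, and 21 of 25 in the set labelled Aire-/-. Fut1 and Sec1 were read together in 1 of the 96 cells of the set labelled Aire-/-, with 9 and 25 positive cells.

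Fut1, Fut2 and Sec1 sit close together on chromosome 7, and the genes around them were therefore read too, in a window of 50 kb on either side that was chosen after the values were seen. It holds 11 other genes at 5 CPM or more in a batch 2 set. Of these, 6 had a log2 difference of 1 or more, labelled Aire-/- minus WT batch 2, against 11% of all genes at that level. They are Fgf21, which encodes a metabolic hormone (0.925 and 47.1 CPM), Rasip1 (4.85 and 15), Mamstr (8.45 and 34.3), Ntn5, which encodes a netrin (5.59 and 24.8), Car11 (1.99 and 12.9) and Dbp, which encodes a circadian transcription factor (3.32 and 9.32). In the same 2 sets, cells positive for Fgf21 made up 1.12% and 4.17%, for Rasip1 6.74% and 17.7%, and for Mamstr 7.87% and 26%. For Ntn5 they made up 3.37% and 14.6%, for Car11 3.37% and 6.25%, and for Dbp 2.25% and 11.5%. Mamstr alone thus had a gap of 15 points or more. By level, Rasip1 and Car11 were higher still in June5, at 42.2 and 30.6 CPM, and the other 4 exceeded every WT set.

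Ntn5 bears on Sec1 directly, since 519 bases (21%) of the Sec1 exons lie opposite Ntn5 exons and the protocol named in the labels does not mark strand. Ntn5 was positive in 14 cells of the set labelled Aire-/-, and 9 of the 25 Sec1-positive cells were among them, which leaves 16 with Sec1 and without Ntn5. These are counts of cells and not of reads: 12 of the 25 held 96.7% of the Sec1 reads. How many of those 12 were Ntn5-positive is not given here. How reads in shared sequence were assigned was not given in the sources used here, and its part in the Sec1 difference was not tested.

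The WT sets show how far sets of 1 genotype label lay apart. Between June29 and June5, none of 35 members was higher and 2 were lower in June29, Gcnt2 and Alg14 (1.81% and 3.4% of all genes). Between WT batch 2 and June5, 1 of 40 was higher (Alg13) and 1 lower (B4galt5) in WT batch 2, where 1.9% and 3.97% of all genes passed. Between WT batch 2 and June29 none of 37 passed in either direction, against 3.38% and 2.68%. These comparisons share sets with one another and with the genotype comparison.

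By level alone, without the shares of cells, the WT sets were further apart. Over the 40 members at 20 CPM in a WT set, the median gap between the lowest and highest set was 1.23 on the log2 scale, against 1.1 over all genes, and 9 of them (22.5%) spanned 2 or more, against 20.4% of genes. The widest, singled out after their values were seen, were Mgat5b, a brain-type branching enzyme (20.1, 60.7 and 0.0175 CPM, with at least 74.9% of reads in 1 cell of each set), B3galt6, B3galt2 (0, 1.1 and 25.5 CPM) and B3galt5. Set against that range, the set labelled Aire-/- lay above it for 14 of 44 members, below it for 8 and within it for 22. That is 31.8% above and 18.2% below, against 24.9% and 21.4% over all genes. Those above were Fut1, Sec1, Fut8, Galnt1, Galnt11, Galnt18, St6gal2, B3galt5, B3galt6, B4galt4, Mgat5, Gcnt1, Alg9 and Alg12. Those below were Galnt6, Galnt14, St6galnac2, St6galnac6, B4galt6, Mgat1, Mgat4a and Alg11. Some lay outside by little, such as Galnt11 at 38.6 CPM against 38 CPM in June5. Within batch 2, the log2 difference of several members on both lists changed sign between sub-batches 1 and 2. Among them were B3galt5 (2.21 and -1.14), Alg12 (1.46 and -1.46) and Mgat1 (0.41 and -1.35), while others, such as Sec1 and Fut8, kept their sign.

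**Figure D4:**
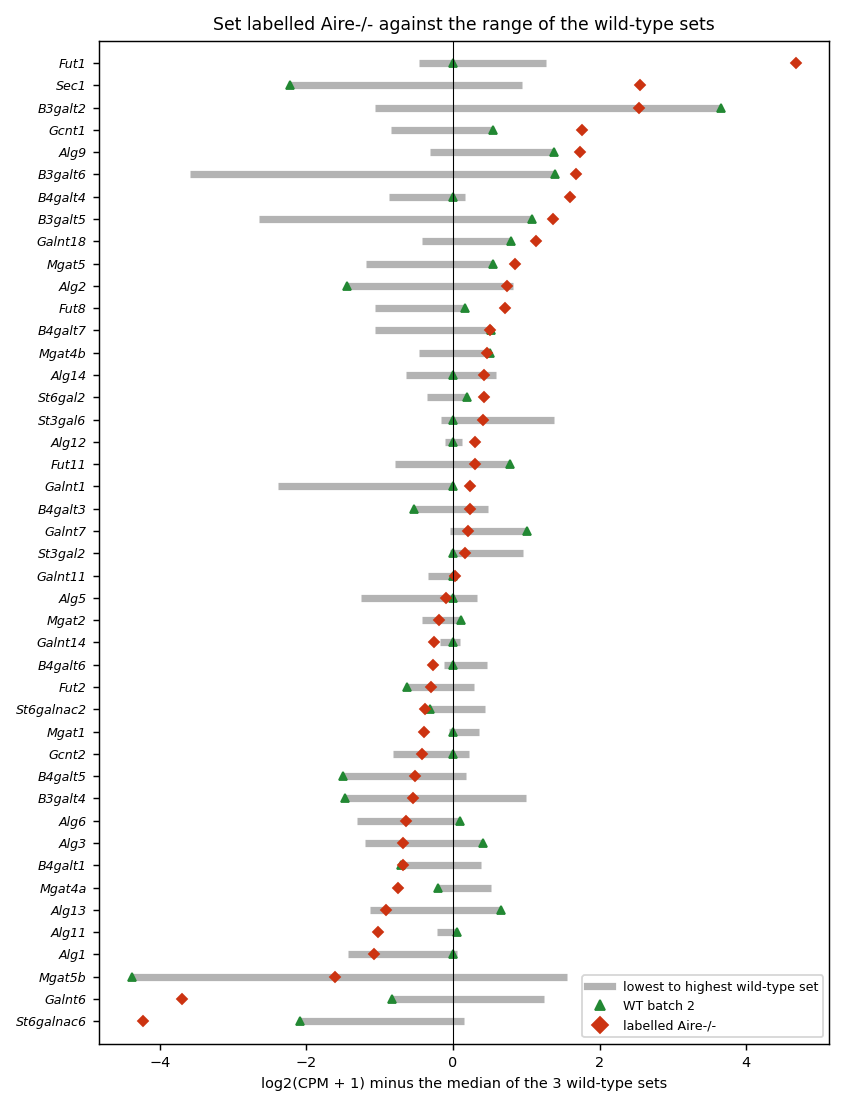
Level of each of the 44 members at 20 CPM or more in a set, as log2(CPM + 1) minus the median of the 3 wild-type sets (horizontal axis). Grey bars run from the lowest to the highest wild-type set, triangles are WT batch 2 and diamonds the set labelled Aire-/-, which lies outside the bar for 22 members, with Fut1, Sec1 and B4galt4 above it and Alg2 and Alg13 inside it.

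Summed by family, the log2 difference, labelled Aire-/- minus WT batch 2, ran from -3.10 (St8sia) to 1.31 (B3gnt). Neither family had a member at 20 CPM. In the set labelled Aire-/-, 1 cell held 75.6% of the B3gnt8 reads and 1 cell held 100% of the B3gnt6 reads. The log2 difference was 1.09 for Fut1, Fut2 and Sec1 together, 0.53 for B4galt, -0.52 for Alg and -0.02 for Galnt. Several of the sums pointed in opposite directions in the 2 sub-batches: St6gal was 1.18 in sub-batch 1 and -1.17 in sub-batch 2, B3galt 0.94 and -0.89, and St3gal 0.64 and -0.86. The sum of Fut1, Fut2 and Sec1 kept its sign, at 1.44 and 0.75, as did B4galt, at 0.39 and 0.76.

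In 5 lists of the rest of the pathway and of glycan carriers, 1 of 72 genes at 20 CPM in a batch 2 set passed the size rule (1.39%), a share near the background of 1.02% higher and 0.399% lower over all genes. The medians given for these lists are over their genes at 5 CPM or more in a batch 2 set. Those genes numbered 27, 23, 12 and 25 in the lists of this paragraph, in order. Of the enzymes and transporters that supply sugar nucleotides, 25 of 28 found were at 20 CPM in a batch 2 set and none passed. The median log2 difference of this list was 0.26, against -0.07 over all genes at 5 CPM. Tsta3, the GDP-fucose synthase and the highest of that list per kb, stood at 158.5, 124.7, 137.5 and 154.5 CPM. None passed among 20 genes of dolichol supply and the oligosaccharyltransferase, led by its subunit Ddost (317.3, 127.7, 255.3 and 367.4 CPM, median of the list -0.05), or among 8 of N-glycan trimming and lectin folding, led by the chaperone Calr (474.6, 264.1, 384.7 and 443.5 CPM, median -0.24). Among 15 other glycosyltransferases 1 was higher in the set labelled Aire-/-, namely Rfng, a Fringe enzyme that extends O-fucose on Notch (20.1 and 55.3 CPM, 11.2% and 28.1% of cells). The highest of these per kb was Ogt, the nucleocytoplasmic O-GlcNAc transferase, at 169.98, 419.9, 287.8 and 252.8 CPM, and the list's median was -0.01.

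Among mucins and other glycan carriers, 4 reached 20 CPM in a batch 2 set and none passed. The median log2 difference of the 8 at 5 CPM or more was -0.51, with 4 of these 8 above 0. The list was led by Cd24a, a short mucin-like surface protein, at 3090, 1213, 2499 and 3188 CPM. The gel-forming mucins were scarce, with Muc2, Muc5ac, Muc5b and Muc6 at 3.58 CPM or less in every set. Muc13, a membrane mucin, stood at 11.4, 16.5 and 46 CPM in the WT sets and 0.0138 CPM in the set labelled Aire-/- (8.99% and 0 of cells in batch 2). These genes, named after their values were seen, did not pass the rule.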

How the data were processed

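Transcripts were measured in 319 samples, each 1 well, of which 317 have a column in the deposited tables. The 2 no-cell wells of batch 2 were not analysed here. The authors deposited raw counts (whole reads, not normalized) in 1 table of WT wells and 1 of Aire-/- wells. Per the submitters' processing notes, STAR, featureCounts 1.5.3 and Subread were used with GRCm38, with annotation and handling of shared reads both not given in the sources used here. The authors also deposited normalized values whose making is not stated (score), from which only the list of wells was taken, for an alternative. Libraries were Smart-seq2, without molecular identifiers or strand, per the labels' protocols, so intervals cover counting error only.

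Symbols, positions and exon lengths came from GENCODE M21 (GRCm38), and 360 of 48887 entries had no name there. Wells were kept with at least 10000 gene reads (spike-ins left out), 1000 genes and at most 20% mitochondrial reads, which left 301 of 314. No doublet caller was run. Counts were summed per set and divided by the set's gene reads (CPM, exact Poisson interval), and shares of positive cells have exact Clopper-Pearson intervals. Thinning drew 231697 reads, the 10th percentile, per cell. Shared sequence was counted as 50-base words of transcripts. The size rule was run on simulated data with genes raised in both level and share of cells. The simulation held no differences between animals or batches, so it checks the calculation and not the rule's use on sets without replicates. Tools were Python 3.11.15, numpy 2.4.6, pandas 2.3.3, scipy 1.17.1 and matplotlib 3.10.9.

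The members, the 12 gene lists and the rules were chosen with earlier results of these data known. Named genes are members past the size rule in any pair of sets, the 2 highest per kb in each family, Fut1, Fut2 and Sec1, and, of other pathway lists, genes past the rule and the highest per kb. Other members are named as the limits of a range or as singled out. The lists used as markers gave, at 20 CPM in a batch 2 set, 20 of 20 tuft core genes and 6 of 6 epithelial genes with none past the rule, 5 genes of Aire-expressing mTEC with Aire higher, and 1 thymocyte, 2 B cell, 1 dendritic cell or macrophage and 0 fibroblast or endothelium genes with none past it. Alternatives covered scaling, thresholds, cell choice, sub-batch, depth, single cells, sex and the WT reference.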

Additional observations from a re-analysis of the deposited data

How the results depend on the processing

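The 3 higher members and the 1 lower member of the genotype comparison were counted again under each alternative. The higher count ran from 2 to 4. The lower count was 0 among cells with Xist and no Y-linked reads and 1 in all others. The median log2 difference over members was 0.03 and turned to -0.36 in sub-batch 2 alone and to -0.0038 without haematopoietic-marker cells, and elsewhere lay between 0.02 and 0.22. Between WT sets, 1 read for a positive cell gave 2 members higher in June29 than in June5, 2 higher and 2 lower in WT batch 2 than in June5, and 3 lower in WT batch 2 than in June29. The 2 members lower in June29 than in June5 became 1 with the mean of per-cell CPM and 0 without the cell with most reads. The number of members in at least 50% of cells depended on reads per cell. With 1 read for a positive cell it was 7, 8 and 8 in June5, June29 and the set labelled Aire-/- in place of 3, 1 and 1, and in thinned cells it was 1 in June5 and 0 in June29. With 1 read the median June29 cell held 17 members in place of 9. The cause of these shifts was not tested. Comparison with the median WT set and the restriction to members with little shared sequence were chosen after seeing the data. No paired analysis was possible because each set is 1 sample and no result comes from a test. The number of cells limits what can be said of members in few cells: with no positive cell in June5, a floor of 3 cells allows a share of up to 10.3%.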
